A study of Mus musculus with 4 samples.

Results

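The 10 genes described here are Zscan4a, Zscan4b, Zscan4c, Zscan4d, Zscan4e, Zscan4f, Zfp352, Tcstv1, Tcstv3 and Tmem92, which mark the 2-cell-like state of mouse embryonic stem cells. They were chosen by name, as the rows of the gene count tables whose Ensembl identifier carries one of these symbols in GENCODE M21 (GRCm38), and all 10 were found among 54838 gene rows. RNA was sequenced from the p300 knock-in line MLC460, in which CRISPR/Cas9 placed a monomeric enhanced green fluorescent protein on the N-terminus of the endogenous coactivator p300, and from its WT parent, E14 cells (E14Tg2a.4, strain 129/Ola). Each line gave 2 libraries, called knock-in 1 and 2 and wild-type 1 and 2 here. Both lines were grown in serum and LIF on gelatin. The knock-in group is 1 line, so a difference between the groups cannot be told apart from one that arose while that line was made, and p-values measure the spread between libraries labelled as biological replicates.

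Mouse zygotic genome activation takes place at the 2-cell stage, and a small and changing fraction of cultured embryonic stem cells enters a state with part of that program. The transcription factor Dux starts much of it, and the Zscan4 genes, which encode SCAN domain and zinc finger proteins linked to telomere lengthening and genome stability, are its best known markers. Because only a small fraction of cells is in this state at a time, levels in a whole culture are low. In these bulk libraries more cells in the state and more RNA per such cell cannot be told apart.

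Reads assigned to genes numbered 25266051 and 18946731 in knock-in 1 and 2, against 26553998 and 21791128 in wild-type 1 and 2. Markers of pluripotent cells were abundant in every library (8 of 8 detected, summed level 5868 to 6228 CPM in knock-in and 5701 to 5764 CPM in wild-type libraries). Those of primitive endoderm summed to 7.92 to 9.57 CPM in knock-in and 9.08 to 9.73 CPM in wild-type libraries, with 5 of 7 tested and none of them passing the test. Wild-type 2 stood apart from the other libraries: the chi-square per degree of freedom was 5.999 between the knock-in libraries and 49.1 between the wild-type libraries. Its deviation from the mean of the 4 libraries followed transcript GC content over 15181 genes, which are not independent replicates (Spearman rho 0.65, against -0.37 and -0.43 in knock-in 1 and 2 and -0.27 in wild-type 1).

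The 6 Zscan4 copies lie in 1 cluster on chromosome 7, between 10794242 and 11402318 on GRCm38. Zscan4c (ENSMUSG00000054272, 11005745 to 11010547) and Zscan4f (ENSMUSG00000070828, 11397915 to 11402318) are on the plus strand. Zscan4a (ENSMUSG00000110097, 10794242 to 10799057), Zscan4b (ENSMUSG00000095339, 10900740 to 10905050), Zscan4d (ENSMUSG00000090714, 11161374 to 11166159) and Zscan4e (ENSMUSG00000095936, 11306378 to 11310682) are on the minus strand. GENCODE M21 lists Zscan4a as an unprocessed pseudogene and the other 9 genes as protein coding. No exon of the 10 genes overlaps an exon of another gene in that annotation.

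The coding sequences of the 5 protein-coding copies could be aligned over 1518 columns without a gap, and they differed in 62 of them. Zscan4b and Zscan4e differed at 4 of 1518 aligned coding bases and Zscan4c and Zscan4f at 6 of 1521, whereas Zscan4d differed from the others at 35 to 51. The longest run without any difference among the 5 copies was 115 bases. The 60 coding bases with the most differences among these 5 copies, bases 636 to 695 of each coding sequence, are shown. Capitals mark the 7 positions at which the copies are not all alike.
Zscan4b: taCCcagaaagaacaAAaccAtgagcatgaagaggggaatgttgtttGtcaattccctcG
Zscan4c: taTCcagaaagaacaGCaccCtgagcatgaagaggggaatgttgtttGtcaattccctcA
Zscan4d: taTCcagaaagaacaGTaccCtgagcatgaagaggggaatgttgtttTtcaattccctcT
Zscan4e: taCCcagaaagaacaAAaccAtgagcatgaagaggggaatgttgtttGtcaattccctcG
Zscan4f: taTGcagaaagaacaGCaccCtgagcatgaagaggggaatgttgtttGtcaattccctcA

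Even in this stretch the letters of Zscan4b and Zscan4e were the same. The gene tables hold reads that aligned to 1 place in the genome, so a read that matched several copies equally well was counted for none. The counts of each copy leave such reads out. Whether reads from a variant 129/Ola copy were placed on another copy was not tested. No source used here gives the read length, so the share of windows found in no other annotated gene was computed for 3 lengths. Of all 50-base windows of the longest transcript, 50.4% were found in no other gene for Zscan4d, 36.4% for Zscan4a, 14.5% for Zscan4c, 9.65% for Zscan4b, 8.43% for Zscan4e and 4.66% for Zscan4f. At 100 bases these shares were 70.4% for Zscan4d and 10.5% for Zscan4f. The windows were shared with the other copies and with the pseudogenes Zscan4-ps1, Zscan4-ps2 and Zscan4-ps3, and at some lengths with Gm17737 and Gm45551. Outside the cluster the 50-base share was 98.0% for Tmem92, 92.9% for Zfp352, 83.2% for Tcstv1 and 68.6% for Tcstv3. Tcstv1 and Tcstv3 were 84.1% identical over 775 aligned transcript bases. These shares come from annotated transcripts alone, on a C57BL/6J reference, whereas the cells are 129/Ola.

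**Figure D1:**
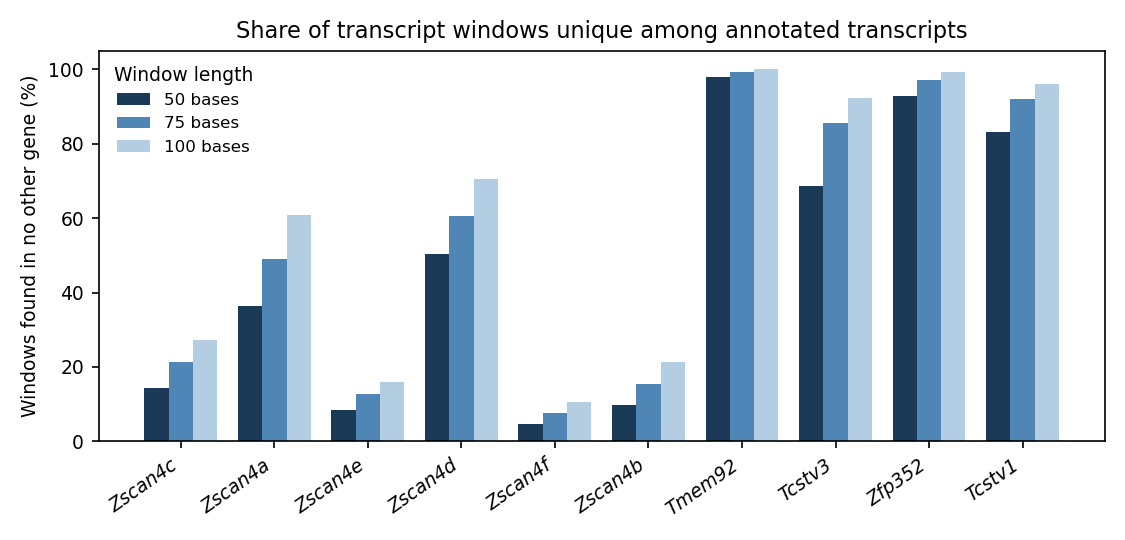
Share of transcript windows (vertical axis, percent) of 50, 75 and 100 bases that occur in no other annotated gene, for each of the 10 genes on the horizontal axis, ordered by level. Zscan4d has the highest share of the 6 Zscan4 copies and Zscan4f the lowest at each length, and Zfp352, Tcstv1, Tcstv3 and Tmem92 are at 68.6% or more at all 3 lengths.

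The copies also share their promoters. RefSeq promoter windows of 300 bases (250 before and 50 after the start, GRCm38.p6) were found for 5 of the 10 genes, Zscan4b, Zscan4c, Zscan4d, Zscan4f and Zfp352. The 4 Zscan4 windows were 95.3% to 99.3% identical to each other where aligned. The windows of Zscan4b (chr7:10905001-10905300, minus strand) and Zscan4c (chr7:11005495-11005794, plus strand), the least alike pair, are shown with the letters TATAAA in capitals.
Zscan4b: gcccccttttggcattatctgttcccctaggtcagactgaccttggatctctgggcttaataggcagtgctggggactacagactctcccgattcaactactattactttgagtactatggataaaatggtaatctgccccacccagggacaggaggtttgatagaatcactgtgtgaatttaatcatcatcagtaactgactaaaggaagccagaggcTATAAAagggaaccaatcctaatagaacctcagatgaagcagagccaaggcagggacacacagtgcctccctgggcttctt
Zscan4c: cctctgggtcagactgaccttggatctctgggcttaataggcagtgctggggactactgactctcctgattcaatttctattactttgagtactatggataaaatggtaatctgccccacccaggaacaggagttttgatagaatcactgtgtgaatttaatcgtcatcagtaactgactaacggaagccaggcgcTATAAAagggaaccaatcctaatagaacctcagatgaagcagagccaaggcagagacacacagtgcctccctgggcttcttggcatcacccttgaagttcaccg

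All 4 Zscan4 windows hold TATAAA on the gene's strand, starting 31 bases before the annotated start in Zscan4b and Zscan4f, 54 before it in Zscan4c and 65 before it in Zscan4d (positions -31, -54 and -65). On either strand, 13.6% of 32851 promoters of that length hold these letters.

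The Zscan4 copies were the most abundant of the 10 genes, and in each of them both knock-in libraries lay above both wild-type libraries. Summed, they were 1.38-fold higher, and no copy passed the test. Levels are reads scaled to library size with TMM factors (CPM). The 6 copies together had 85.4 and 77.6 CPM in knock-in 1 and 2, against 65.4 and 52.3 CPM in wild-type 1 and 2. That is 81.5 ± 5.50 CPM in knock-in and 58.9 ± 9.27 CPM in wild-type cells (SD, n = 2 each), a log2 ratio of means of 0.47, with no test because a sum over copies was not fitted. The wild-type libraries lay farther apart than the knock-in libraries.

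Zscan4c, known from earlier work as the predominant copy in mouse embryonic stem cells, had 20.2 and 16.1 CPM in knock-in 1 and 2, against 15.3 and 11.99 CPM in wild-type 1 and 2. These rest on 492 and 301 reads in knock-in 1 and 2 and on 421 and 264 reads in wild-type 1 and 2. The groups did not overlap, but knock-in 2 was close to wild-type 1. On the log2 scale the difference came to 0.41, with SE 0.21 and a 95% interval of -0.064 to 0.89 (edgeR quasi-likelihood adjusted p = 0.483).

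Zscan4a, the copy listed as a pseudogene, had 17.9 and 16.0 CPM in knock-in 1 and 2, against 13.4 and 11.8 CPM in wild-type 1 and 2. The groups again did not overlap, and they differed by 0.43 on the log2 scale (SE 0.19, edgeR adjusted p = 0.455). Zscan4d, the predominant copy in the 2-cell mouse embryo and the one with the most distinct windows here, had 16.0 and 15.7 CPM in knock-in 1 and 2, against 12.1 and 9.90 CPM in wild-type 1 and 2. Its knock-in libraries were nearly equal, and the log2 difference came to 0.53, with SE 0.20 and a 95% interval of 0.078 to 0.97 (edgeR unadjusted p = 0.0260, adjusted p = 0.424).

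Zscan4e had 13.2 and 12.9 CPM in knock-in 1 and 2, against 10.5 and 8.40 CPM in wild-type 1 and 2. Zscan4f had 13.0 and 12.4 CPM in knock-in 1 and 2, against 10.5 and 7.36 CPM in wild-type 1 and 2. Zscan4b, the copy with the fewest counted reads, had 5.09 and 4.50 CPM in knock-in 1 and 2, against 3.70 and 2.91 CPM in wild-type 1 and 2. In all 3 of them both knock-in libraries again lay above both wild-type libraries, by 0.47 on the log2 scale for Zscan4e (SE 0.21, edgeR adjusted p = 0.455), by 0.50 for Zscan4f (SE 0.23, adjusted p = 0.459) and by 0.53 for Zscan4b (SE 0.26, adjusted p = 0.476). In every copy wild-type 1 was above wild-type 2 (by 0.18 to 0.51 on the log2 scale) and knock-in 1 above knock-in 2 (by 0.025 to 0.33).

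The share of each copy in the family varied by under 3 percentage points between libraries. Over the 4 libraries, Zscan4c held 20.8% to 23.7% of the summed Zscan4 reads, Zscan4a 20.4% to 22.5%, Zscan4d 18.5% to 20.3%, Zscan4e 15.4% to 16.6%, Zscan4f 14.1% to 16.0% and Zscan4b 5.56% to 5.96%. The reads behind these shares numbered 2080 and 1450 in knock-in 1 and 2, and 1801 and 1152 in wild-type 1 and 2. The exact 95% binomial interval of the share of Zscan4c, which covers counting error only, was 21.8% to 25.5% in knock-in 1 and 18.7% to 22.9% in knock-in 2, against 21.4% to 25.4% in wild-type 1 and 20.5% to 25.5% in wild-type 2. The intervals of the 4 libraries overlapped.

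Outside the cluster the 4 genes were scarce, and their groups overlapped. Zfp352 (ENSMUSG00000070902, chromosome 4, 90218820 to 90225702), which encodes a zinc finger protein of the early embryo, had 15 and 6 reads in knock-in 1 and 2, against 12 and 6 reads in wild-type 1 and 2. Its log2 fold change of 0.41 has a wide interval (SE 0.60, -0.94 to 1.76, edgeR adjusted p = 0.803), so a difference of the size seen for Zscan4 was not detectable at this depth. Tmem92 (ENSMUSG00000075610, chromosome 11, 94777217 to 94782703), which encodes a membrane protein, had 3.28 and 1.66 CPM in knock-in 1 and 2, against 2.29 and 2.59 CPM in wild-type 1 and 2. Its 2 knock-in libraries enclosed both wild-type libraries, and the log2 difference came to 0.042, with SE 0.36 and a 95% interval of -0.78 to 0.86 (edgeR adjusted p = 0.974). That value was -0.57 without knock-in 1, 0.44 without knock-in 2, -0.037 without wild-type 1 and 0.12 without wild-type 2, so its direction was not settled.

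Tcstv1 and Tcstv3 belong to a family of 2-cell stage transcripts and lie in 1 region of chromosome 13 (Tcstv1, ENSMUSG00000096284, 119893388 to 119894785; Tcstv3, ENSMUSG00000095821, 120316878 to 120318178). Tcstv3 had 24 and 16 reads in knock-in 1 and 2, against 25 and 16 reads in wild-type 1 and 2. Scaled, these were 0.985 and 0.857 CPM in knock-in 1 and 2 and 0.908 and 0.727 CPM in wild-type 1 and 2, a difference of 0.17 on the log2 scale with SE 0.43 (edgeR adjusted p = 0.896). Tcstv1 had 0 and 1 reads in knock-in 1 and 2, against 0 and 2 reads in wild-type 1 and 2. A count of 0 allows up to 3 reads, or 0.123 CPM in knock-in 1 and 0.109 CPM in wild-type 1, so all 4 libraries were at or under that limit and no fold change is given. Tcstv1 did not pass the filter on low counts and was not tested.

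**Figure D2:**
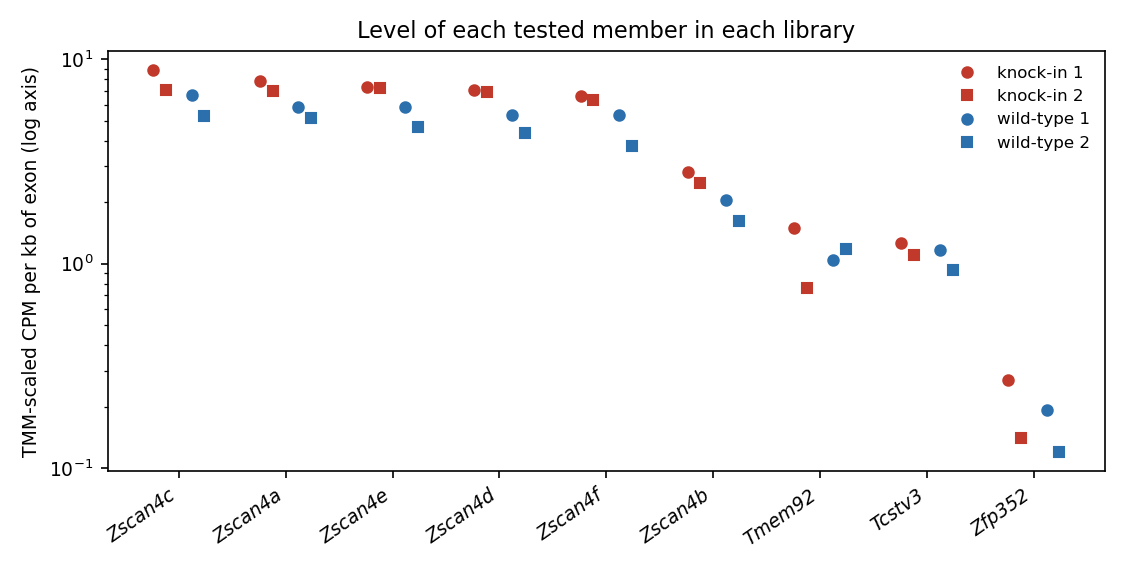
Level of the 9 tested genes (horizontal axis) in each library, as TMM-scaled CPM per kilobase of exon on a log axis, with knock-in libraries in red and wild-type libraries in blue. In the 6 Zscan4 copies both red points lie above both blue points, and in Tmem92, Tcstv3 and Zfp352 the colours overlap.

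Per kilobase of exon, the mean over the 4 libraries ran from 6.99 CPM for Zscan4c through 6.48 for Zscan4a, 6.27 for Zscan4e, 5.92 for Zscan4d and 5.51 for Zscan4f to 2.25 for Zscan4b. Below them came Tmem92 at 1.12, Tcstv3 at 1.12, Zfp352 at 0.181 and Tcstv1 at 0.0258 CPM per kilobase. The ranges of neighbours over the 4 libraries overlapped among the top 5 copies and between Tmem92 and Tcstv3. Those ranges also hold differences between libraries that the copies share. Within each library Zscan4c lay above Zscan4a (8.88 against 7.87 and 7.08 against 7.02 in knock-in 1 and 2, 6.72 against 5.87 and 5.27 against 5.16 in wild-type 1 and 2). Zscan4a and Zscan4e changed order (7.02 against 7.20 in knock-in 2, 5.16 against 4.68 in wild-type 2). Zscan4f was among the top 5 although 4.66% of its 50-base windows were found in no other gene. That share was 9.65% for Zscan4b and 50.4% for Zscan4d. The levels are not corrected for these shares, so they do not rank the Zscan4 copies by RNA level.

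At an adjusted p under 0.05, none of the 9 tested genes was called by edgeR (2 had an unadjusted p under 0.05, Zscan4a and Zscan4d, against 3.54% of all genes with such a p and a higher level). Of all 15191 genes tested, 0.00658% passed as higher and 0.0592% as lower, 10 genes in all. DESeq2 called none of the 8 for which it gave an adjusted p, which leaves out Zfp352 and Tcstv1 (1 with an unadjusted p under 0.05), and 0.044% of all genes as higher and 0.586% as lower. limma-voom called none (4 with an unadjusted p under 0.05), and 0.00658% as higher and 0.0197% as lower. The share of all genes with an unadjusted p under 0.05 is given for edgeR alone. The counts of 1 (DESeq2) and 4 (limma-voom) therefore have no background. A fit with the replicate number as a block called none of them, and 0.303% of all genes as higher and 0.994% as lower. All 9 log2 fold changes were above 0, with a median of 0.43, where 50.1% of all genes tested were above 0 and their median was 0.00098. For 6 of the 9 both knock-in libraries lay above both wild-type libraries, against 23.4% of all genes tested. The 6 copies share sequence and region, so they are not 6 separate observations. Without wild-type 1 all 6 Zscan4 copies passed as higher (adjusted p = 0.000399 to 0.0467), but so did 19% of all genes (13.1% passed as lower), in a fit that sets the knock-in pair against wild-type 2 alone and takes its spread from that pair. Without wild-type 2 none of the 9 passed, where 0.711% of all genes passed as higher and 3.68% as lower, and their median log2 fold change was 0.26.

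**Figure D3:**
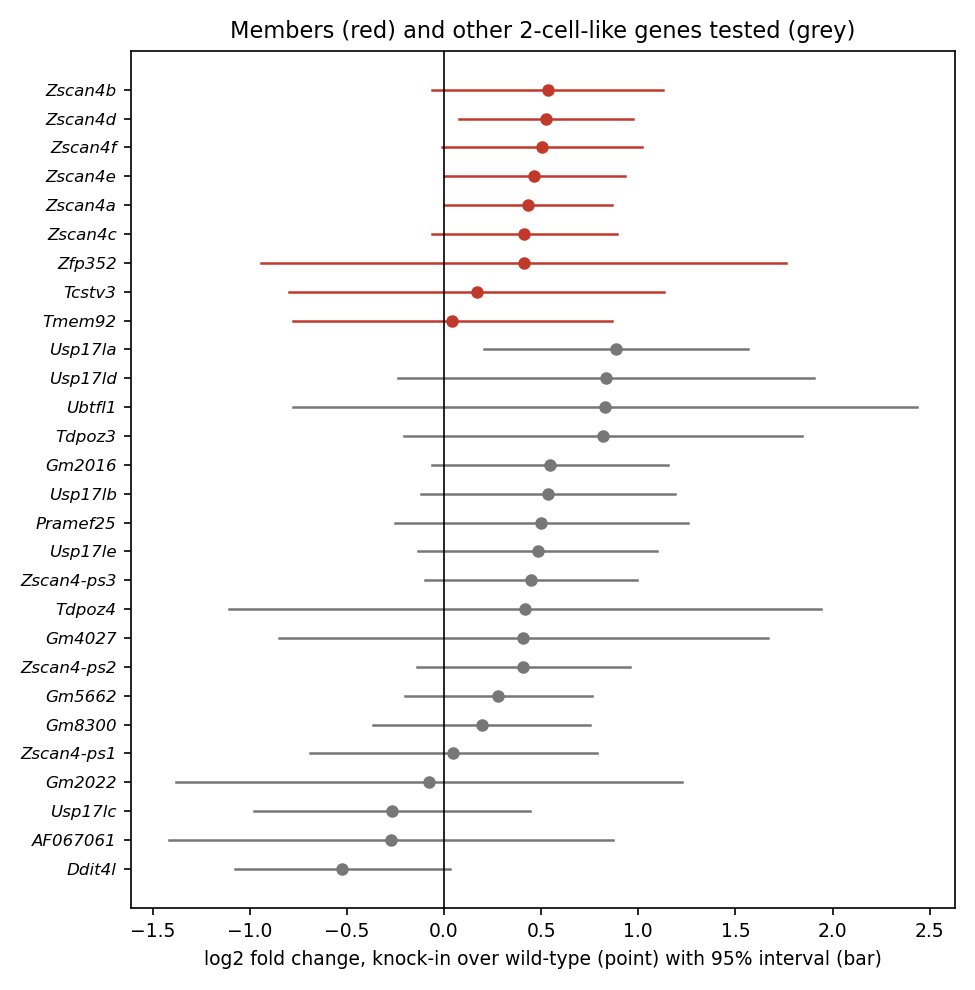
Log2 fold change of knock-in over wild-type (horizontal axis) with its 95% interval for the 9 tested genes (red) and for the 19 tested genes of a list of other 2-cell-like genes (grey), from the fit over all genes. All red points and 15 of the 19 grey points lie right of 0, and the intervals of Zscan4a, Zscan4d and Usp17la do not reach 0.

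Transcript GC content, with which wild-type 2 deviated, is low in the Zscan4 copies. Their longest transcripts have 42.3% to 44.4% GC, against a median of 50% over the genes tested, and the 1249 other genes tested in that range had a median log2 fold change of 0.22 (25th to 75th percentile 0.041 to 0.35). In 40.3% of those genes both knock-in libraries lay above both wild-type libraries. All 6 Zscan4 copies lay above the 75th percentile of that range. With each library's GC trend removed, the summed Zscan4 level was 81.8 and 71.9 CPM in knock-in 1 and 2, against 59.6 and 65.0 CPM in wild-type 1 and 2. The log2 ratio of means was 0.30 in place of 0.47. The 1249 other genes in that GC range then had a median log2 fold change of 0.079 (25th to 75th percentile -0.11 to 0.21). All genes tested had a corrected median of 0.064.

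With that correction wild-type 2 lay above wild-type 1 in the sum, and the knock-in libraries stayed above both. Zscan4b, Zscan4d, Zscan4e and Zscan4f then kept the groups apart (32.4% of all genes did so in this direction), while Zscan4a and Zscan4c did not. The log2 fold changes were 0.24 (SE 0.16) for Zscan4a, 0.42 (SE 0.24) for Zscan4b, 0.23 (SE 0.16) for Zscan4c, 0.34 (SE 0.15) for Zscan4d, 0.35 (SE 0.16) for Zscan4e and 0.40 (SE 0.16) for Zscan4f. The lowest edgeR adjusted p among the 9 genes was 0.227, for Zscan4f, where 0.369% of all genes passed as higher and 0.869% as lower. After correction Zfp352 (44.3% GC) differed by 0.32 on the log2 scale (SE 0.59), Tcstv3 (48.7% GC) by 0.21 (SE 0.44) and Tmem92 (51.2% GC) by 0.17 (SE 0.34).

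**Figure D4:**
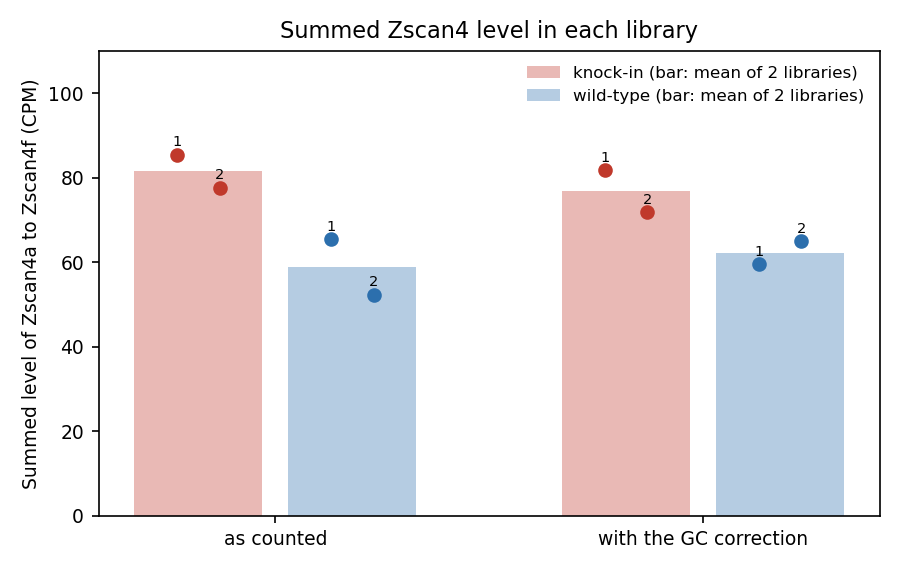
Summed level of Zscan4a to Zscan4f in CPM (vertical axis) as counted and with the GC correction, with bars for the mean of the 2 libraries of each line and numbered points for the libraries. The knock-in points lie above the wild-type points in both cases, and the gap is smaller with the correction, 0.30 against 0.47 on the log2 scale.

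**Figure D5:**
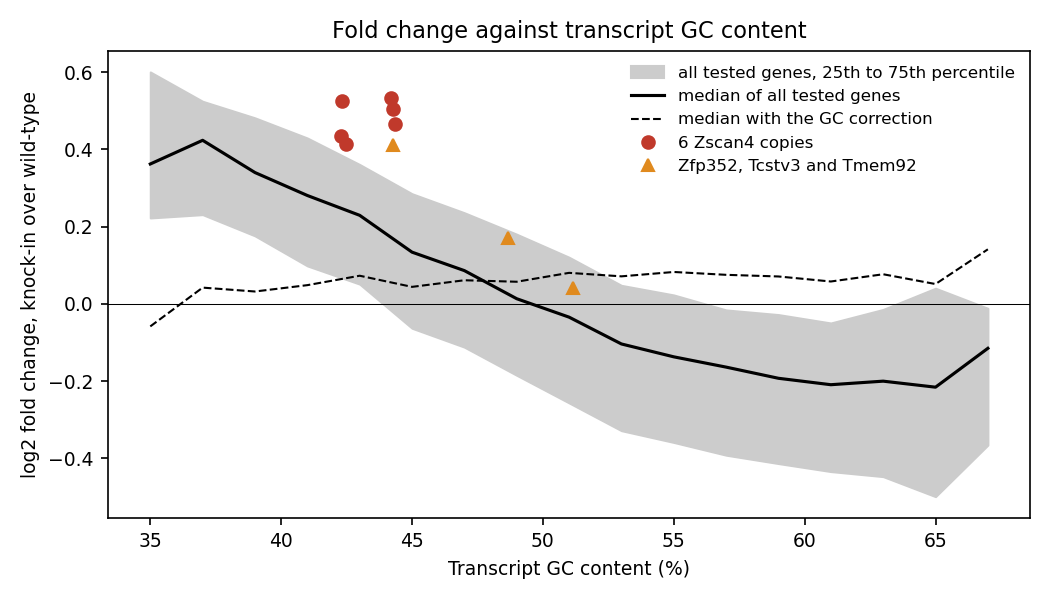
Log2 fold change of knock-in over wild-type (vertical axis) against transcript GC content in percent (horizontal axis). The line and grey band give the median and the 25th to 75th percentile of all genes tested in bins of 2 percentage points holding at least 20 genes, the dashed line the median with the GC correction, the red points the Zscan4 copies and the orange triangles Zfp352, Tcstv3 and Tmem92. The Zscan4 copies lie above the band at their GC content, and the median of all genes falls from bin to bin between 36% to 38% GC (0.42) and 60% to 62% GC (-0.21). Outside that range it does not, with 0.36 at 34% to 36% GC and -0.12 at 66% to 68% GC.

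A list of 33 other 2-cell-like genes, among them the Zscan4 pseudogenes and the Usp17l and Tdpoz families, was read in the same fit. None of its 19 tested genes passed, 15 had a log2 fold change above 0, and the median was 0.42. Both knock-in libraries lay above both wild-type libraries for 10 and below both for 2, against 23.4% and 23.9% of all genes tested. Zscan4-ps3, a pseudogene of the cluster and the most abundant gene of the list, had 13.4 and 10.4 CPM in knock-in 1 and 2, against 10.2 and 7.27 CPM in wild-type 1 and 2 (log2 fold change 0.45, SE 0.24). Gm5662, the next, had 9.44 and 8.24 CPM in knock-in 1 and 2, against 7.55 and 7.04 CPM in wild-type 1 and 2 (0.28, SE 0.21). Usp17la, a deubiquitinase gene named after its values were seen, had the only unadjusted p under 0.05 in the list (0.89, SE 0.30, edgeR adjusted p = 0.385). It had 3.16 and 2.998 CPM in knock-in 1 and 2, against 1.53 and 1.82 CPM in wild-type 1 and 2. Many of these genes have near-identical copies too, so their counts carry the same limit. The Zscan4 pseudogenes share windows with the Zscan4 copies, so the list is not a separate observation. Log2 fold changes of this list and of the lists below are given without the GC correction.

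Known activators of the state did not pass either. Of 5 listed, 4 were tested, 3 had a log2 fold change above 0 and none passed (median 0.16). Duxf3, the Dux gene, had 10 and 13 reads in knock-in 1 and 2, against 5 and 6 reads in wild-type 1 and 2, too few to pass the filter. Dppa4, a chromatin-binding protein of pluripotent cells that promotes Dux expression together with Dppa2, had 143 and 145 CPM in knock-in 1 and 2, against 119 and 116 CPM in wild-type 1 and 2 (log2 fold change 0.29, SE 0.14, edgeR adjusted p = 0.474). Tbx3, a T-box factor, had 204 and 191 CPM in knock-in 1 and 2, against 209 and 196 CPM in wild-type 1 and 2 (-0.041, SE 0.14).

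Of 23 genes for repressors of the state, all were tested, 19 had a log2 fold change above 0 and none passed (median 0.13). Trim28, a corepressor that silences retroviral elements, had 2942 and 2737 CPM in knock-in 1 and 2, against 2464 and 3359 CPM in wild-type 1 and 2 (-0.036, SE 0.18). Ncl, nucleolin, which takes part in Dux repression at the nucleolus, had 2906 and 2631 CPM in knock-in 1 and 2, against 2245 and 1708 CPM in wild-type 1 and 2 (0.49, SE 0.17, edgeR adjusted p = 0.408). Of 16 telomere and recombination genes, 15 were tested, 11 were above 0 and none passed (median 0.17). Terf1, which encodes a protein bound to telomeric DNA, had 214 and 196 CPM in knock-in 1 and 2, against 182 and 147 CPM in wild-type 1 and 2 (0.32, SE 0.16). Atrx, a chromatin remodeller at telomeres, had 242 and 285 CPM in knock-in 1 and 2, against 253 and 132 CPM in wild-type 1 and 2 (0.46, SE 0.26), with wild-type 2 alone far below the rest.

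Marker lists of other cell types had medians below 0. Of 7 fibroblast markers, 4 were tested and none passed (3 had an unadjusted p under 0.05, median log2 fold change -0.91). In the same edgeR fit 1662 of 15191 genes had an unadjusted p under 0.05, 538 of them higher in knock-in. All 4 had both knock-in libraries below both wild-type libraries, against 23.9% of all genes tested. The list summed to 22.2 and 23.8 CPM in knock-in 1 and 2, against 36.0 and 39.1 CPM in wild-type 1 and 2. Most of that sum was Thy1, a surface glycoprotein, with 298 and 240 reads in knock-in 1 and 2 against 454 and 444 reads in wild-type 1 and 2, and Pdgfrb, a growth factor receptor, with 199 and 170 reads in knock-in 1 and 2 against 456 and 332 reads in wild-type 1 and 2. Pdgfrb differed by -0.88 on the log2 scale (SE 0.20, edgeR adjusted p = 0.184). The collagen gene Col1a1 had 27 and 28 reads in knock-in 1 and 2, against 60 and 62 reads in wild-type 1 and 2, Lum was at 0 reads in every library and Dcn at 0 or 1. Of 6 trophoblast markers, 3 were tested, 1 was above 0 and none passed (median -0.49), and the list summed to 11.7 and 12.4 CPM in knock-in 1 and 2, against 15.9 and 15.4 CPM in wild-type 1 and 2. The part of these markers in the Zscan4 values was not tested.

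The 5 genes with the pattern most like the summed Zscan4 level were Wdr43, Eed, Srfbp1, Wtap and Etaa1. Likeness was the Euclidean distance over the 4 libraries between centred log2(CPM + 0.5) values, which was 0.022 to 0.044 for these 5, against a median of 0.60 over 12144 genes of at least 1 CPM. Wdr43, the nearest, had 346 and 320 CPM in knock-in 1 and 2, against 265 and 215 CPM in wild-type 1 and 2. Choosing genes by this distance fixes their direction and size of difference, so these are a description. Their transcript GC content was 39.6% to 47.8%.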

How the data were processed

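RNA-seq of 2 knock-in and 2 wild-type libraries was read from the authors' deposited tables of raw counts per gene. Per the submitters' processing notes they used Trim Galore and STAR 2.5.3a with GRCm38 (mm10). The unstranded count column was used, the 4 summary rows were left out (multimapping reads were 3.80% to 4.46% of reads and held those of near-identical copies), and 54723 of 54838 identifiers matched GENCODE M21. Genes passing filterByExpr (minimum count 10) were fitted in edgeR 4.0.16 (R 4.3.3) with TMM scaling, genotype as the only term and all 4 libraries, using the quasi-likelihood F test with Benjamini-Hochberg adjustment over 15191 genes at 0.05. The standard error was the absolute log2 fold change over the square root of F. The GC correction used a natural spline (5 degrees of freedom) of each library's log2 CPM deviation on transcript GC content as an offset. Alternatives were other scaling, filters, tools (DESeq2 1.42.0, limma 3.58.1), strand columns, a replicate block and leaving out each library. The fit was tested on simulated data with planted 2-fold and 4-fold changes. It recovered 74 of 100 of the 2-fold and 95 of 100 of the 4-fold changes, and 17 of its 186 calls were false. No change as small as that of the summed Zscan4 level was planted. The simulated libraries of a group shared the same mean for each gene, without a GC trend like that of wild-type 2. The recovery and false calls therefore do not cover that feature.

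The genes and lists were chosen with earlier results of these data known. Named genes were all 10, and from each other list those past the threshold (up to 4) or, with none, the 2 most abundant, plus the 5 genes of most similar pattern. Cell type markers were given as list values. Duxf3, Usp17la and the fibroblast markers named singly fall outside this rule and were named after their values were seen.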

Additional observations from a re-analysis of the deposited data

How the results depend on the processing

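None of the 7 to 10 of these genes that each fit tested passed under another scaling, filter, tool, strand column, GC correction or replicate block (7 with the 1 CPM filter and forward-strand counts, 8 with reverse-strand counts and DESeq2, 10 without a filter, otherwise 9), and the summed Zscan4 ratio stayed above 0 in each of the settings run for it (log2 0.30 to 0.49 outside the fits that leave out a library). The count of genes passing moved far more: 10 in the reported fit, 354 without a low-count filter, 86 with DESeq2, 4 with limma-voom, 188 with the GC correction, 197 with the replicate block and 398 with both. Leaving out 1 library gave 16 to 5015 genes, 0 to 6 of the 8 or 9 tested, a median log2 fold change of 0.26 to 0.64 and a summed Zscan4 ratio of 0.30 to 0.64. With the GC correction as well these were 66, 80, 674 and 1536 genes, 0 of the 8 or 9 tested, 0.20 to 0.43 and 0.20 (without knock-in 1), 0.24 (without wild-type 1), 0.39 and 0.42. The highest values without the correction, and the highest gene count with it, came without wild-type 1, and the cause was not tested.

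Tmem92 had log2 fold changes of -0.57 without knock-in 1, 0.44 without knock-in 2 and -0.037 without wild-type 1. They were -0.016 with the replicate block, -0.14 from reverse-strand counts, -0.0048 with limma-voom and -0.028 with crossed pairs. With the GC correction and a library left out they ran from -0.44 (without knock-in 1) to 0.59 (without knock-in 2).

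In the lists, leaving out a library gave 0 to 2 calls among other 2-cell-like genes, 0 to 2 among activators, 0 to 8 among repressors, 0 to 9 among telomere and recombination genes, 0 to 3 among pluripotency markers and 0 to 3 among fibroblast markers, each highest without wild-type 1, where 19% of all genes passed as higher and 13.1% as lower. The GC correction alone called 1 of 8 pluripotency markers, as higher, where 0.369% of all genes passed as higher and 0.869% as lower. The GC correction together with the replicate block called 1 of 4 fibroblast markers, as lower. In that fit 150 of 15191 genes passed as higher and 248 as lower.

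Same-numbered libraries did not deviate together (correlation -0.12 over genes, 2 pairs), so the number is not taken as a pairing. Pairing them crosswise, an alternative chosen after seeing the data as were the GC fits without a library, gave 509 genes and 0 of the 9 tested. Depth limits Zfp352, Tcstv1 and Tcstv3 most, each with at most 25 reads in a library.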
